A study of Mus musculus with 139 samples.

Results

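The subject is a set of 5 genes of the acute phase response, Saa3, Lcn2, Ltf, Hp and Orm1, chosen by name and followed in the lungs of mice given mineral or carbon fibres. Each gene was read from the array feature that carries its symbol alone, and each of the 5 had a single such feature, so they are 5 of 22180 genes measured. The animals were male C57BL/J6 mice (the labels' spelling), 7 weeks old on arrival, which breathed in 1 droplet placed behind the tongue (pharyngeal aspiration). The droplet held 1, 10, 40 or 80 µg of multi-walled carbon nanotubes (MWCNT), 120 µg of crocidolite, an amphibole asbestos, or dispersion medium (DM) alone. DM, a buffered saline with glucose, mouse serum albumin and a surfactant lipid, was also the carrier of every fibre dose, so all mice received it. Lungs were collected 1, 6 or 12 months later, which gives 18 groups of 8 mice, except 6 mice for 1 µg at 12 months, 5 for crocidolite at 1 month and 7 for crocidolite at 12 months. The labels number the mice, so replicates are separate animals, and the fibre masses of 80 and 120 µg were not matched.

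Acute phase proteins are released in larger amounts during inflammation, mostly by the liver and in part by the inflamed tissue itself, under cytokines such as IL-6, IL-1 and TNF acting through STAT, NF-kappaB and C/EBP factors. Saa3 is a serum amyloid A of mice that is made largely outside the liver, by macrophages, fat cells and epithelia, and travels with lipoproteins. Lcn2, a lipocalin, captures the siderophores with which bacteria take up iron. Ltf, lactoferrin, binds iron in airway secretions and in the secondary granules of neutrophils. Hp, haptoglobin, binds free haemoglobin, and Orm1, orosomucoid, is an acid glycoprotein of plasma that carries lipids and drugs.

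The regions around the start sites are shown because the background names factors whose short motifs can be looked for there. Windows from 250 bases before to 50 bases after the start site were held by RefSeq (GRCm38.p6) for 3 of the 5 genes, and those of Hp and Orm1 were not analysed here. Each is written 5′ to 3′ on the strand of the gene, with capitals marking matches to the C/EBP motif TTNNGNAA on either strand.
Saa3: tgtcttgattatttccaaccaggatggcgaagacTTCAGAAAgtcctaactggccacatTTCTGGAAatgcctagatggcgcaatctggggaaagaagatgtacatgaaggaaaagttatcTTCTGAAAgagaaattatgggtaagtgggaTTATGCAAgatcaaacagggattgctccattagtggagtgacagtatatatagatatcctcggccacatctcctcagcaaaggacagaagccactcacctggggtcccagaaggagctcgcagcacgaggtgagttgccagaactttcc
Lcn2: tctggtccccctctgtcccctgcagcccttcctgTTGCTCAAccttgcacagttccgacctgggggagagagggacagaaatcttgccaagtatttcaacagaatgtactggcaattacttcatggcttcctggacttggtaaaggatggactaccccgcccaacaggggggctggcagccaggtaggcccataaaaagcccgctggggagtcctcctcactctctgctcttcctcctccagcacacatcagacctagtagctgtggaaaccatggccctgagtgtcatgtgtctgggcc
Ltf: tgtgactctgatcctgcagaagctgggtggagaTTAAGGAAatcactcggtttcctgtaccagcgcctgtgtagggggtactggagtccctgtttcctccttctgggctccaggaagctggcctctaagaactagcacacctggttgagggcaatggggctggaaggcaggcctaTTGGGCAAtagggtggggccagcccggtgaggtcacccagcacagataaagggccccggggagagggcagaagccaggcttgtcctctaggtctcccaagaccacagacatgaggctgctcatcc
The windows lie at chr7:46715627-46715926 (minus strand, Saa3), chr2:32387690-32387989 (minus strand, Lcn2) and chr9:111019042-111019341 (plus strand, Ltf). That of Saa3 lies inside the annotated gene, since the RefSeq record spans more than the transcript that starts there. The C/EBP motif matched at 4 places in the Saa3 window, 1 in that of Lcn2 and 2 in that of Ltf, and 40.7% of 32851 mouse windows of this length held at least 1 match. The STAT motif TTCNNNGAA, held by 8.3% of windows, and the NF-kappaB consensus, held by 4.5%, had 0 matches in the 3 windows. None of the matches overlapped another. A match describes letters only, and 0 matches in a window of 300 bases says nothing about the factor elsewhere.

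In GRCm38.p6 the genes lie at chr7:46711998-46719615 (Saa3), chr2:32384637-32387739 (Lcn2), chr9:111019292-111042766 (Ltf), chr8:109575128-109579172 (Hp) and chr4:63344556-63348163 (Orm1). The values are log2 values after RMA, and array medians over all 41345 array features, with or without a gene symbol, lay between 4.009 and 4.336. A level is given as a log2 value and a difference as exposed minus DM lungs of the same time with its standard error (SE), where 1 unit is a doubling. The files give no background flag, so it is unknown whether Saa3 and Orm1, which lay near the array medians in DM lungs, were above background there. The number of arrays limits the precision. In whole lung, more cells that express a gene cannot be told apart from more RNA per cell. The lung genes Sftpc (12.26 to 12.74 over all mice), Scgb1a1 (12.25 to 12.81) and Ager (9.52 to 11.73) were high in every mouse.

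Some arrays stood apart. The titles of 38 arrays carry the unexplained word replacement, and these 38 fell unevenly over the groups, with 4 of 8 in DM at 1 month and 0 of 8 with crocidolite at 6 months. A single mouse (1 µg, 1 month) has an array with the word and an array without it. Over all genes these correlated at 0.976, and Ltf was at 5.28 on the first and 7.95 on the second, Saa3 at 3.82 and 4.94, Orm1 at 4.83 and 3.90, Hp at 10.29 and 10.89, and Lcn2 at 8.85 and 8.46. Their mean stood for that mouse, and the gap in Ltf is as wide as its largest difference between an exposed group and DM. In 14 mice the mean level of skeletal muscle or squamous epithelium markers was above 6, 3 of them DM mice of 1 month.

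Exposure raised these genes in 22 of 75 tests against DM, 5 genes in 15 groups, and lowered none. Lcn2 rose in 8 of the 15 groups, Saa3 and Ltf in 5 each, and Hp and Orm1 in 2 each, both with crocidolite. A call here is an adjusted p under 0.05 in a limma fit to all genes. At 1 µg 0 of 5 genes passed at 1, 6 and 12 months, where limma called 0% of all genes at each time. None of the 5 had an unadjusted p under 0.05 there, against 437, 1248 and 595 of all genes. At 10 µg 0 of 5 passed at 1 month (0.0225% of all genes passed), at 6 months (0.00451%) and at 12 months (0%, with 945 genes at an unadjusted p under 0.05), and 2, 1 and 1 of the 5 had an unadjusted p under 0.05. At 40 µg 2 of 5 passed at 1 month (0.573% of all genes), 1 of 5 at 6 months (0.212%) and 0 of 5 at 12 months (0.0361%), where 2 of the 5 had an unadjusted p under 0.05. At 80 µg 3 of 5 passed at 1 month (1.79%), 3 of 5 at 6 months (0.933%) and 1 of 5 at 12 months (0.176%). With crocidolite 3 of 5 passed at 1 month (5.76%), 4 of 5 at 6 months (3.68%) and 5 of 5 at 12 months (6.47%). All exposed groups of a time share its 8 DM mice, so their results are not independent.

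**Figure D1:**
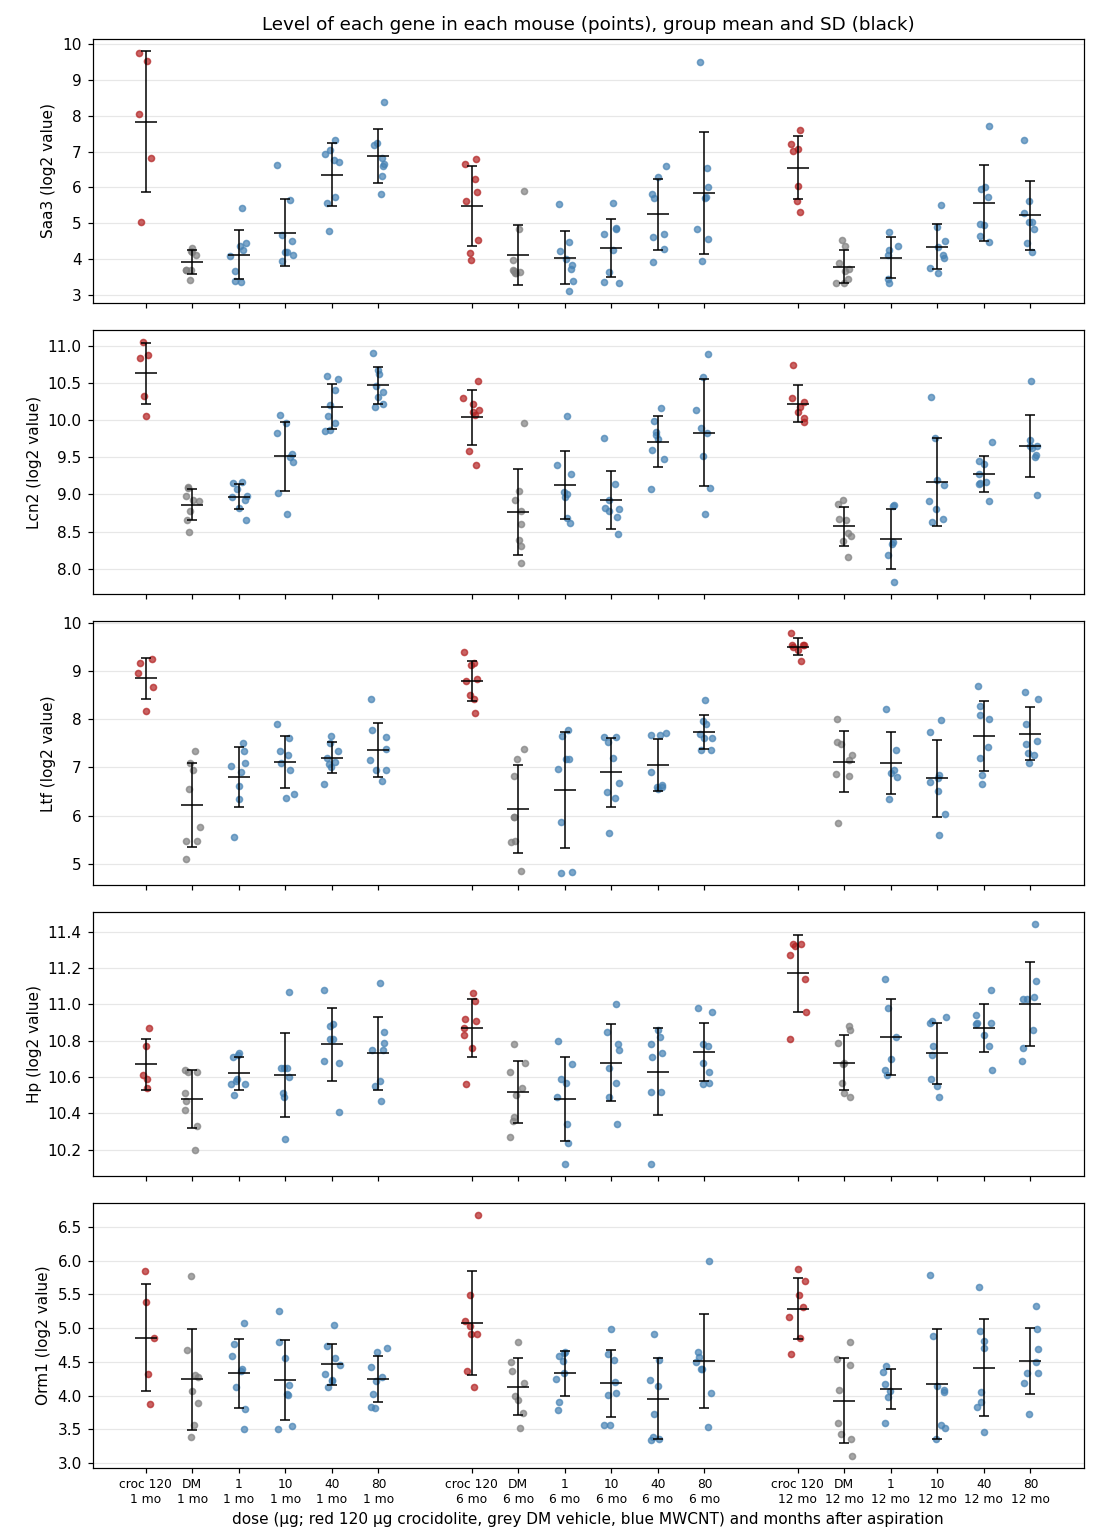
Log2 level of the 5 genes (rows, log2 value on the vertical axis) in each mouse, with group mean and SD in black, for crocidolite (red), DM (grey) and MWCNT by dose in µg (blue) at 1, 6 and 12 months. Saa3 and Lcn2 climb with MWCNT dose at 1 month, and Ltf is highest in the 3 crocidolite groups.

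**Figure D2:**
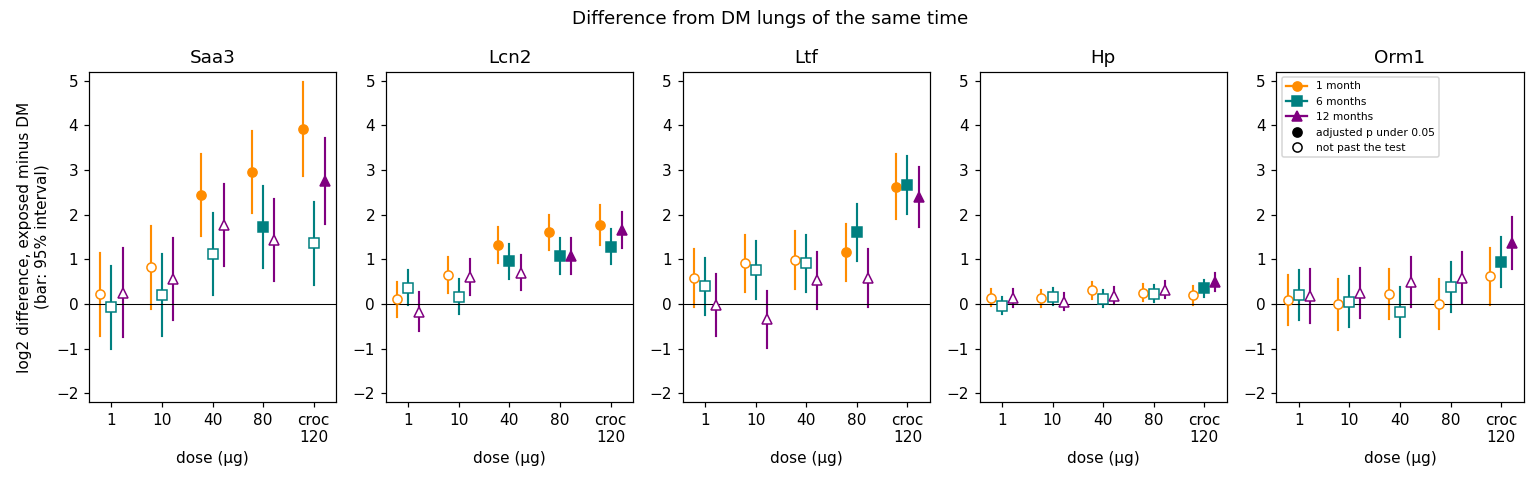
Log2 difference from DM lungs of the same time with its 95% interval, by dose in µg and time, for each gene; filled symbols passed the test at an adjusted p under 0.05. All 22 filled symbols lie above 0, 8 of them for Lcn2.

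Saa3 had the widest span of group means, 4.03 log2 units between crocidolite at 1 month (7.83 ± 1.97, SD) and DM at 12 months (3.80 ± 0.46). At 1 month it was at 5.81, 6.74 and 8.38 (lowest, median and highest) in 80 µg lungs, against 3.43, 3.92 and 4.31 in DM lungs. All 8 mice at 80 µg were above every DM mouse, and Saa3 was 7.74-fold higher (2.95 ± 0.47, adjusted p = 1.91e-06). The 40 µg mice, at 4.80, 6.74 and 7.33, were also all above the DM mice, and Saa3 rose by 2.44 ± 0.47 (adjusted p = 0.000489). The 5 crocidolite mice of 1 month read 8.05, 5.03, 6.81, 9.52 and 9.75, a spread of nearly 5 units that still lay above every DM mouse. Saa3 was 15.0-fold higher with crocidolite (3.91 ± 0.53, adjusted p = 9.76e-09). The size of this Saa3 difference depended on single mice, at 4.61 or 24.4-fold without replicate 2, the mouse at 5.03. It was 2.68 or 6.41-fold (adjusted p = 0.00629) without the 10 arrays of lowest correlation with the others, among them the mice at 9.52 and 9.75. By title it was 3.29 without the word replacement (adjusted p = 0.00646), from 2 crocidolite mice, those at 5.03 and 9.75. The 80 µg difference of 1 month was 3.57 with the word (adjusted p = 0.00704).

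At 6 months the Saa3 ranges overlapped. It was at 3.95, 5.72 and 9.50 in 80 µg lungs and at 3.99, 5.74 and 6.78 in crocidolite lungs, against 3.61, 3.69 and 5.90 in DM lungs. The rise with 80 µg (1.73 ± 0.47, adjusted p = 0.0375) passed the test, and the crocidolite difference of 1.36 ± 0.47 (adjusted p = 0.0872) did not. The 80 µg call ended without any of 4 of its own mice or 6 of the DM mice, with adjusted p between 0.0569 and 0.474, and without replicate 2, the mouse at 9.50, the difference was 1.21. Among arrays without the word replacement it was 1.08 (adjusted p = 0.64), and without the mice high in squamous or muscle markers 1.75 (adjusted p = 0.0664). The crocidolite difference passed without DM replicate 2, the mouse at 5.90 (1.61, adjusted p = 0.0338), and without crocidolite replicates 5 (1.54, adjusted p = 0.0494) or 6 (1.57, adjusted p = 0.0376). At 12 months Saa3 was at 5.33, 7.01 and 7.61 in crocidolite lungs, against 3.34, 3.70 and 4.55 in DM lungs, with no overlap, and rose 6.75-fold (2.76 ± 0.48, adjusted p = 1.25e-05). The 80 µg lungs of 12 months, at 4.19, 5.04 and 7.31, overlapped the DM lungs (1.43 ± 0.47, adjusted p = 0.195). At 40 µg 7 of 8 mice were above every DM mouse, and the difference of 1.77 ± 0.47 did not pass either (adjusted p = 0.091).

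Lcn2 was the gene called in the most groups, and its mice scattered less than those of Saa3. At 1 month it was at 9.85, 10.13 and 10.59 in 40 µg lungs and at 10.17, 10.42 and 10.90 in 80 µg lungs, against 8.50, 8.92 and 9.10 in DM lungs. The 5 crocidolite mice read 10.84, 10.06, 10.33, 10.87 and 11.05. Every mouse of these 3 groups was above every DM mouse. Lcn2 rose by 1.32 ± 0.20 with 40 µg (adjusted p = 1.75e-06), by 1.60 ± 0.20 with 80 µg (adjusted p = 9.91e-10) and by 1.76 ± 0.23 with crocidolite (adjusted p = 2.15e-09). At 10 µg 6 of 8 mice were above every DM mouse, and the difference of 0.65 did not pass over all genes (adjusted p = 0.848).

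At 6 months Lcn2 was at 8.73, 9.86 and 10.89 in 80 µg lungs and at 9.40, 10.12 and 10.52 in crocidolite lungs, against 8.08, 8.69 and 9.96 in DM lungs. DM replicate 2 at 9.96, also the DM mouse highest in Saa3, made the DM range overlap that of crocidolite. The lowest 80 µg mouse, at 8.73, was also below DM replicates 1, 4 and 7 (8.78, 9.04 and 8.93). Lcn2 rose by 0.95 ± 0.20 with 40 µg (adjusted p = 0.00769), by 1.07 ± 0.20 with 80 µg (adjusted p = 0.000331) and by 1.28 ± 0.20 with crocidolite (adjusted p = 1.79e-06). The 80 µg difference in Lcn2 was 0.92 (adjusted p = 0.0562) among arrays without the word replacement. At 12 months it was at 8.99, 9.63 and 10.52 in 80 µg lungs and at 9.98, 10.18 and 10.74 in crocidolite lungs, against 8.16, 8.57 and 8.93 in DM lungs, with no overlap of either with DM. Lcn2 rose by 1.08 ± 0.20 with 80 µg (adjusted p = 0.00119) and by 1.65 ± 0.21 with crocidolite (adjusted p = 5.71e-10). It was the only one of the 5 genes called with 80 µg at 12 months, although 4 of the 5 had an unadjusted p under 0.05.

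Ltf had its 3 highest group means with crocidolite. At 1 month the 5 crocidolite mice read 9.16, 8.18, 8.68, 9.26 and 8.96, against 5.10, 6.16 and 7.35 in DM lungs, and Ltf rose 6.19-fold (2.63 ± 0.37, adjusted p = 3.50e-08). At 6 months it was at 8.14, 8.81 and 9.40 in crocidolite lungs, against 4.85, 5.96 and 7.39 in DM lungs (2.66 ± 0.33, adjusted p = 4.43e-10). At 12 months the 7 crocidolite mice lay within 9.22 and 9.79, against 5.84, 7.20 and 8.0 in DM lungs (2.39 ± 0.34, adjusted p = 3.25e-08). The crocidolite mice were above every DM mouse at each time. In 80 µg lungs Ltf was at 6.71, 7.27 and 8.42 at 1 month and at 7.36, 7.65 and 8.41 at 6 months, and it rose by 1.16 ± 0.33 (adjusted p = 0.0352) and 1.61 ± 0.33 (adjusted p = 0.00104). At 12 months, at 7.10, 7.52 and 8.57, the 80 µg lungs overlapped the DM lungs (0.58 ± 0.33, adjusted p = 0.518).

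The DM lungs of 1 month fell into separate Ltf ranges by array title. The 4 arrays with the word replacement read 5.10 to 5.76, and the 4 without it 6.56 to 7.35. Airway secretory markers moved with this split, with mean levels of 8.56 to 9.45 in the first 4 mice and 9.68 to 10.01 in the second 4, and 3 of the second 4 were high in muscle or squamous markers. The part of either in the Ltf values was not tested. Among arrays without the word the Ltf difference at 1 month was 0.65 with 80 µg (adjusted p = 0.881) and 1.58 with crocidolite (adjusted p = 0.162, 2 crocidolite mice). Among arrays with it the differences were 1.49 (adjusted p = 0.072) and 3.59 (adjusted p = 1.61e-06). The 80 µg call at 1 month also ended without any of 4 DM or 3 of the 80 µg mice (adjusted p between 0.0696 and 0.129). For Saa3, by contrast, title ranges overlapped in all 10 groups with at least 2 arrays of each kind, and Lcn2 ranges were apart in 1 of 10, Ltf in 2, Hp in 1 and Orm1 in 2.

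**Figure D3:**
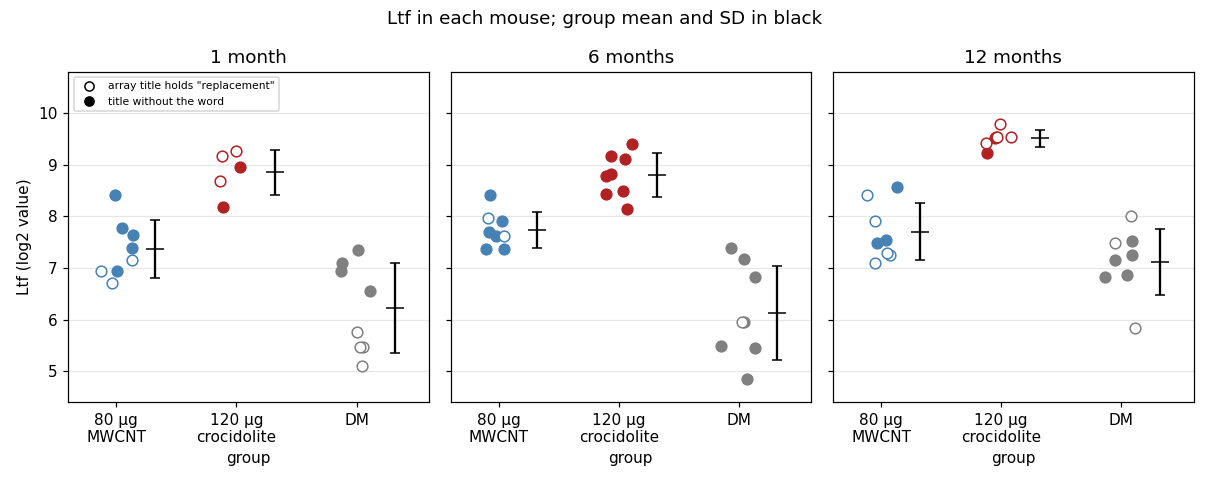
Ltf log2 level in each mouse given 80 µg MWCNT, 120 µg crocidolite or DM at 1, 6 and 12 months (panels), with group mean and SD in black; open symbols are arrays whose title holds the word replacement. At 12 months all 8 mice at 80 µg lie below every crocidolite mouse, and at 1 month the open DM symbols lie below the filled ones.

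Hp was high in every lung and varied little, with group means between 10.48 and 11.17. Its rise was called only with crocidolite, at 6 months (0.35 ± 0.10, adjusted p = 0.0203) and 12 months (0.49 ± 0.10, 1.4-fold, adjusted p = 0.000247). At 12 months it was at 10.81, 11.27 and 11.33 in crocidolite lungs, against 10.49, 10.67 and 10.88 in DM lungs, with 6 of 7 mice above every DM mouse. At 6 months it was at 10.56, 10.89 and 11.06 in crocidolite lungs, against 10.27, 10.52 and 10.78 in DM lungs, and the call ended without DM replicates 5 or 6 or crocidolite replicate 8 (adjusted p from 0.0535 to 0.0632). Without the mice high in squamous or muscle markers that Hp difference was 0.31 (adjusted p = 0.111). Among the 2 crocidolite arrays of 12 months without the word replacement the Hp difference was 0.17 (adjusted p = 0.717), and among the 5 with it 0.67 (adjusted p = 0.00206). With 80 µg the Hp differences were 0.25 at 1 month (adjusted p = 0.229), 0.22 at 6 months (adjusted p = 0.425) and 0.32 at 12 months (adjusted p = 0.146).

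Orm1 was also called only with crocidolite. At 12 months it was at 4.62, 5.31 and 5.88 in crocidolite lungs, against 3.11, 3.83 and 4.80 in DM lungs, with 6 of 7 mice above every DM mouse, and rose 2.58-fold (1.37 ± 0.30, adjusted p = 0.000597). By title the 12-month Orm1 difference was 1.28 without the word (adjusted p = 0.0994, 2 crocidolite mice) and 1.46 with it (adjusted p = 0.0513). At 6 months it was at 4.13, 4.97 and 6.67 in crocidolite lungs, against 3.52, 4.09 and 4.79 in DM lungs, and rose by 0.95 ± 0.29 (adjusted p = 0.0381). The crocidolite mouse at 6.67, replicate 8, was also high in squamous (8.15) and muscle (7.60) markers. The Orm1 call of 6 months ended without any of 4 DM or 4 crocidolite mice (adjusted p from 0.0526 to 0.208). Without replicate 8 the difference was 0.72 (adjusted p = 0.208), and without the 14 mice high in those markers 0.68 (adjusted p = 0.257). With crocidolite at 1 month the 5 mice read 5.39, 3.88, 4.32, 4.85 and 5.84, against 3.38, 4.17 and 5.77 in DM lungs (0.62 ± 0.33, adjusted p = 0.33). With 80 µg the Orm1 differences were 0.01, 0.38 and 0.59 at 1, 6 and 12 months, and none passed (adjusted p = 0.999, 0.851 and 0.446).

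The 80 µg and crocidolite lungs were set against each other directly, with the masses unmatched. Of the 15 tests only that of Ltf at 12 months passed, where it was at 7.10, 7.52 and 8.57 in 80 µg lungs, against 9.22, 9.54 and 9.79 in crocidolite lungs. All 8 mice at 80 µg were below every crocidolite mouse, a difference of -1.81 ± 0.34 (adjusted p = 0.000326), and 1 of 5 genes passed where 0.978% of all genes did. Among arrays without the word replacement the difference was -1.50 (adjusted p = 0.156), with 2 crocidolite mice, and among arrays with it -1.97 (adjusted p = 0.00175). At 1 month the Ltf difference was -1.47 ± 0.37 (adjusted p = 0.0642) and at 6 months -1.06 ± 0.33 (adjusted p = 0.751), each with 7 of 8 mice at 80 µg below every crocidolite mouse. Without crocidolite replicate 2 or 3 the 1-month difference passed (-1.64 and -1.52, adjusted p = 0.0148 and 0.0387). At these times 0 of 5 genes passed, against 0.0902% and 0.0271% of all genes, and 1 of the 5 at each had an unadjusted p under 0.05.

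The other 4 genes did not pass between 80 µg and crocidolite, and their intervals leave room for a difference. At 1 month the 95% interval ran from -2.01 to 0.09 for Saa3, from -0.61 to 0.29 for Lcn2, from -0.16 to 0.27 for Hp and from -1.26 to 0.03 for Orm1. At 6 months it ran from -0.55 to 1.30 for Saa3 and from -0.60 to 0.19 for Lcn2. At 12 months the intervals of Saa3 (-2.28 to -0.37), Lcn2 (-0.99 to -0.17) and Orm1 (-1.36 to -0.20) lay below 0, with adjusted p = 0.192, 0.186 and 0.219 over all genes.

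The MWCNT dose trend was fitted as a straight line through DM and the 4 doses, with 1 added to the dose in µg before taking log2. At 1 month mean Saa3 was at 3.92, 4.13, 4.74, 6.36 and 6.87 in DM, 1, 10, 40 and 80 µg lungs, a slope of 0.48 ± 0.06 per doubling (adjusted p = 9.40e-10). Mean Lcn2 was at 8.86, 8.97, 9.51, 10.18 and 10.47 along the same doses (0.26 ± 0.03, adjusted p = 2.04e-14). Mean Ltf was at 6.22, 6.80, 7.12, 7.20 and 7.37 (0.15 ± 0.04, adjusted p = 0.0178). Among arrays without the word replacement the Ltf slope of 1 month was 0.09 (adjusted p = 0.693) and the Saa3 slope of 6 months 0.19 (adjusted p = 0.2). The Ltf slope also did not pass without DM replicate 4 (adjusted p = 0.0561) or without 80 µg replicate 4 (adjusted p = 0.0552). At 1 month 3 of 5 slopes passed (3.03% of all genes), at 6 months 3 of 5 (1.34%) and at 12 months 2 of 5 (1.2%).

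At 6 months the slopes of Saa3 (0.27 ± 0.06), Lcn2 (0.15 ± 0.03) and Ltf (0.21 ± 0.04) passed, with adjusted p = 0.00317, 1.86e-05 and 0.000599. At 12 months those of Saa3 (0.26 ± 0.06, adjusted p = 0.0126) and Lcn2 (0.18 ± 0.03, adjusted p = 2.14e-06) passed. The Saa3 slope of 12 months did not pass without 80 µg replicate 8, the mouse at 7.31 (0.23, adjusted p = 0.0547). Among arrays with the word replacement the 12-month slopes were 0.26 for Saa3 (adjusted p = 0.684) and 0.15 for Lcn2 (adjusted p = 0.104). The Ltf slope of 12 months was 0.10 ± 0.04 (adjusted p = 0.217). Mean Ltf was at 7.12, 7.09, 6.77, 7.65 and 7.70 in DM, 1, 10, 40 and 80 µg lungs at that time. None of the Hp slopes (0.04 at each time) or Orm1 slopes (0.01, 0.01 and 0.09 at 1, 6 and 12 months) passed. The smallest adjusted p among them was 0.0721, for Hp at 1 month, and that slope passed without 80 µg replicate 2 (adjusted p = 0.0412).

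Whether effects changed with time was tested as the 12-month difference minus the 1-month difference. In limma 0 of 15 such tests passed, 2 of them with an unadjusted p under 0.05. The background was 0% of all genes at 40 µg (1253 with an unadjusted p under 0.05), 0.00902% at 80 µg and 0.0541% with crocidolite. The Saa3 effect of 80 µg changed by -1.53 between 1 and 12 months, with a 95% interval from -2.83 to -0.22 and an adjusted p of 0.573. The Lcn2 effect of 40 µg changed by -0.62 (interval -1.18 to -0.06, adjusted p = 0.875). With crocidolite the change in the Orm1 effect was 0.75 (interval -0.12 to 1.62) and in the Hp effect 0.29 (interval -0.002 to 0.58). The calls of Hp and Orm1 at 12 but not 1 month are therefore not shown to differ in time.

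In DM lungs across times 0 of 15 tests passed, 3 of them with an unadjusted p under 0.05, where 0.135% of all genes passed between 6 months and 1 month, 1.12% between 12 months and 1 month and 0.239% between 12 and 6 months. Mean Ltf in DM, with the SD over mice, was 6.22 ± 0.87 at 1 month, 6.13 ± 0.91 at 6 months and 7.12 ± 0.64 at 12 months. The differences were 0.90 for 12 months minus 1 month (adjusted p = 0.186) and 0.98 for 12 minus 6 months (adjusted p = 0.15). The other 4 genes differed between DM groups by -0.33 to 0.20.

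Ordered by group mean, Saa3 and Lcn2 ran alike at the top, with crocidolite at 1 month first (7.83 for Saa3, 10.63 for Lcn2), then 80 µg at 1 month (6.87 and 10.47), crocidolite at 12 months (6.55 and 10.22) and 40 µg at 1 month (6.36 and 10.18). At the bottom stood DM at 12 months for Saa3 (3.80) and 1 µg at 12 months for Lcn2 (8.40). For Ltf the 3 crocidolite groups led (9.51 at 12 months, 8.85 at 1 month and 8.80 at 6 months), followed by 80 µg at 6 months (7.74), with DM at 6 months last (6.13). For Orm1 the same 3 crocidolite groups led, at 5.29, 5.07 and 4.86 for 12, 6 and 1 months. For Hp crocidolite at 12 months (11.17) led, followed by 80 µg and 40 µg (10.87) of 12 months. Neighbours in these orders differed by more than the larger of their SDs in 2 of 17 steps for Ltf, below crocidolite at 12 months (0.66) and below crocidolite at 6 months (1.06), and in 0 of 17 for each other gene. This sets the gaps against the spread of single mice, not against the error of a mean, and the order of neighbours was not tested.

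Over the 18 group means Saa3 and Lcn2 correlated at 0.938, Ltf and Orm1 at 0.865, Ltf and Hp at 0.763, and Saa3 and Hp at 0.458, as a description of means that share arrays and treatments. Whether single mice of a group varied together was tested on deviations from the group means over all mice, with mice permuted within groups. Of 10 pairs 6 passed after Benjamini-Hochberg adjustment over the 10 with Pearson's r, and 5 with Spearman's rho. Pairs of other genes were not tested, so the count is not shown to be particular to these genes. Saa3 and Lcn2 had r = 0.633 and rho = 0.564 (permutation p = 1e-05, the smallest that the permutations can give, adjusted p = 0.0001 for each). Within groups of at least 6 mice r was positive in 15 of 17, with a median of 0.62, and without the 2 mice farthest from the Saa3 median it was 0.596. Among 100 mice without the word replacement in the array title r was 0.650 (adjusted p = 0.0001), and among 33 mice with the word 0.528 (permutation p = 0.0439, adjusted p = 0.439).

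Saa3 also varied with Orm1 (r = 0.410, rho = 0.356, permutation p = 2e-05 and 9e-05, adjusted p = 0.0001 and 0.000367; 0.332 without the 2 farthest mice, positive in 14 of 17 groups). It was 0.421 in arrays without the word and 0.269 with it. Ltf varied with Hp (r = 0.364, rho = 0.355, permutation p = 5e-05 and 0.00011, adjusted p = 0.000167 and 0.000367; 0.343 without the 2 farthest mice, positive in 16 of 17 groups). Within title kinds that r was 0.378 without the word and 0.147 with it. Weaker pairs that passed were Saa3 with Ltf (r = 0.252, rho = 0.271, permutation p = 0.00081 and 0.00101, adjusted p = 0.00202 for each, 0.242 without the 2 farthest mice; 0.291 without and 0.258 with the word) and Lcn2 with Orm1 (r = 0.276, rho = 0.310, permutation p = 0.00283 and 0.00033, adjusted p = 0.00566 and 0.000825, 0.324 without the 2 farthest mice). The second did not pass in arrays without the word (0.233, adjusted p = 0.0623; 0.357 with it). Saa3 with Hp passed with Pearson's r alone (r = 0.216, permutation p = 0.0136, adjusted p = 0.0226; rho = 0.191, permutation p = 0.0335, adjusted p = 0.0558) and not without 10 arrays of low correlation (0.171, adjusted p = 0.117). Lcn2 and Ltf, both proteins of neutrophil secondary granules, had r = 0.054 and rho = 0.010 (permutation p = 0.571 and 0.913, adjusted p = 0.634 and 0.913), with r positive in 7 of 17 groups. Lcn2 with Hp (r = 0.017), Ltf with Orm1 (r = 0.140) and Hp with Orm1 (r = 0.089) did not pass (adjusted permutation p = 0.851, 0.165 and 0.382).

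**Figure D4:**
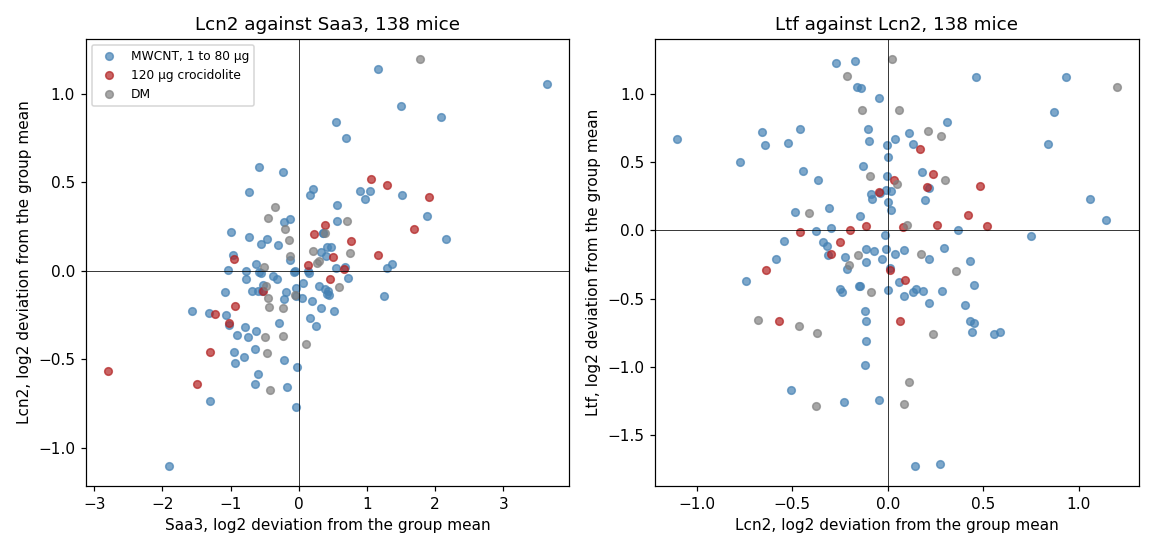
Log2 deviations of single mice from their group means for Lcn2 against Saa3 (left, r = 0.633) and Ltf against Lcn2 (right, r = 0.054) over all mice, coloured by exposure. The left cloud slopes upward and the right cloud does not.

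The genes whose 18 group means were most like each of the 5 were read off as a description, with no test. For Saa3 they were Ctsk, a collagen-degrading cathepsin (r = 0.974 over groups, 0.865 over all mice), Msr1, a macrophage scavenger receptor (0.972 and 0.756), and Tnip3, an inhibitor of NF-kappaB signalling (0.967 and 0.797). For Lcn2 they were C3ar1, the receptor of complement fragment C3a (0.976 and 0.865), Chil1, a chitinase-like protein (0.975 and 0.920), and Steap4, a metalloreductase (0.967 and 0.778). For Ltf they were Cxcl17, a mucosal chemokine (0.964 and 0.784), Gp2, a glycoprotein of epithelial cells that bind bacteria (0.954 and 0.774), and Oit1 (0.952 and 0.772). Mean Gp2 was at 4.68, 4.45 and 4.47 in 80 µg lungs and 6.22, 6.58 and 7.60 in crocidolite lungs at 1, 6 and 12 months, against 3.16, 3.06 and 3.32 in DM lungs, the crocidolite-led order of Ltf. For Hp they were Urah (0.922 and 0.534), Sptlc3 (0.920 and 0.450) and Tspan1 (0.917 and 0.660). For Orm1 they were Trp63, a transcription factor of basal epithelium (0.953 and 0.385), Cdhr1 (0.914 and 0.470) and Clca3b (0.909 and 0.509), and mean Trp63 stayed between 3.25 and 4.36.

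Of 24 other acute phase genes 20 were measured, and their calls were also all upward. With 80 µg 9 of 20 rose at 1 month, 5 at 6 months and 0 at 12 months (7 with an unadjusted p under 0.05), and with crocidolite 8, 7 and 8. Beside this and the lists below, 1.79%, 0.933% and 0.176% of all genes passed with 80 µg at 1, 6 and 12 months. With crocidolite the shares were 5.76%, 3.68% and 6.47%, in either direction. An unadjusted p under 0.05 was found for 2243, 1859 and 2389 of 22180 genes with 80 µg and for 3686, 3347 and 3849 with crocidolite. Lrg1, a leucine-rich glycoprotein of plasma, rose by 1.20 ± 0.22 with 80 µg and 1.73 ± 0.25 with crocidolite at 1 month (adjusted p = 6.03e-05 and 6.56e-08). Itih4, a heavy chain of the inter-alpha-trypsin inhibitors, rose by 1.13 ± 0.17 and 1.59 ± 0.19. Cd14, the lipopolysaccharide co-receptor, rose by 0.85 ± 0.17 and 1.18 ± 0.20. At 12 months, where Ltf also differed, 4 of the 20 were lower with 80 µg than with crocidolite, among them Itih4 (-1.24 ± 0.17) and Lrg1 (-1.23 ± 0.23). In that direct comparison 0.978% of all genes passed, in either direction. The median difference over the 20 genes was 0.17 with 80 µg and 0.41 with crocidolite at 1 month, beside -0.01 over all genes in both.

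Of 24 inducing cytokines, receptors and transcription factors 23 were measured. With 80 µg 3 of 23 rose at 1 month, 0 at 6 months (4 with an unadjusted p under 0.05) and 0 at 12 months (2). With crocidolite 4 rose and 1 fell at 1 month, 1 rose and 1 fell at 6 months, and 4 rose at 12 months. Il1a, an alarmin cytokine, rose by 0.58 ± 0.17 with 80 µg and 0.97 ± 0.19 with crocidolite at 1 month (adjusted p = 0.0412 and 0.000122). Il6, the main inducer of liver acute phase genes, rose by 0.72 ± 0.16 with crocidolite at 1 month (adjusted p = 0.000600), and Tnf by 0.69 ± 0.17 with crocidolite at 12 months (adjusted p = 0.00260). The mean level of Il6 over the series was 1.71, below every array median, so it is unknown whether Il6 was above background. The genes that fell, singled out once their values were known, were the IL-6 receptor chain Il6ra (-0.56 ± 0.15) at 1 month and the NF-kappaB subunit Rela (-0.33 ± 0.09) at 6 months.

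Of 12 receptors and clearance routes of these proteins 10 were measured. With 80 µg 3, 1 and 0 of 10 rose at 1, 6 and 12 months (1 with an unadjusted p under 0.05 at 12 months), and with crocidolite 3, 2 and 4. Itln1, an intelectin described as a lactoferrin receptor, rose by 0.82 ± 0.23 with 80 µg and 1.72 ± 0.26 with crocidolite at 1 month. At 12 months it was lower with 80 µg than with crocidolite, by -1.74 ± 0.24 (adjusted p = 8.40e-08), the direction of Ltf. The mean level of Itln1 over the series was 2.96, below every array median. Lrp2, megalin, an uptake receptor of Lcn2, rose by 0.73 ± 0.13 and 0.98 ± 0.15 at 1 month, and Tlr2, a receptor through which serum amyloid A can signal, by 0.42 ± 0.12 with 80 µg. Of 14 genes of iron and heme handling 13 were measured. With 80 µg 2 rose at 1 month and 0 at 6 and 12 months (2 and 1 with an unadjusted p under 0.05), and with crocidolite 2, 2 and 3 rose and 1 fell at 6 months. Slc11a1, a metal transporter of phagosomes, rose by 0.78 ± 0.19 with 80 µg and 1.04 ± 0.21 with crocidolite at 1 month, and Hmox1, heme oxygenase, by 0.56 ± 0.14 and 0.87 ± 0.16. Blvrb, a biliverdin reductase, was higher by 0.48 ± 0.15 with crocidolite at 12 months, and Steap3, a ferrireductase, fell by 0.48 ± 0.14 with crocidolite at 6 months.

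Markers of cells that make these proteins were read beside them. Of 13 neutrophil markers, all measured, 1 rose with 80 µg and with crocidolite at each time, and that gene was Cd177, a surface protein of neutrophils. It rose by 1.96 ± 0.23, 1.12 ± 0.23 and 1.42 ± 0.23 with 80 µg and by 2.26 ± 0.26, 2.11 ± 0.23 and 2.58 ± 0.24 with crocidolite at 1, 6 and 12 months. The other 12 did not pass in these comparisons. Group means of the granule genes Camp (1.81 to 2.11), Mpo (2.27 to 2.71), Elane (2.25 to 2.78) and Ngp (2.92 to 3.55) stayed below every array median, while those of S100a8 ran from 4.79 to 6.67. Over the whole list, Cd177 included, mean levels per mouse had medians of 4.48, 4.57 and 4.72 in 80 µg lungs at 1, 6 and 12 months. They were 4.68, 4.46 and 4.76 in crocidolite lungs, against 4.27, 4.24 and 4.69 in DM lungs. The part of Cd177 in these medians was not tested.

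None of 8 hepatocyte markers passed with 80 µg or crocidolite in limma, with between 0 and 2 of the 8 at an unadjusted p under 0.05. A single mouse, replicate 3 of 10 µg at 12 months, had a mean hepatocyte marker level of 7.50, and the next highest of all mice was at 5.27. Its Orm1 of 5.79 was the highest of its group, its Hp of 10.77 lay inside the group's range of 10.49 to 10.93, and its Saa3 of 3.62 was the lowest of the group. Of 8 airway secretory markers 4, 4 and 1 rose with 80 µg at 1, 6 and 12 months. With crocidolite 4 rose at each time and 2 fell at 1 month. Those that fell, named once their values were known, were the club cell genes Cyp2f2 (-0.60 ± 0.09) and Scgb3a2 (-0.49 ± 0.15). Muc5b, an airway mucin, rose by 1.54 ± 0.17 with 80 µg and 1.68 ± 0.20 with crocidolite at 1 month, Reg3g, an antimicrobial lectin, by 1.63 ± 0.31 and 2.00 ± 0.35, and the secretoglobin Scgb3a1 by 0.82 ± 0.24 and 1.34 ± 0.27. At 12 months 3 of the 8 markers were lower with 80 µg than with crocidolite, as Ltf was, led by Scgb3a1 (-1.46 ± 0.25). Of all genes 0.978% passed between 80 µg and crocidolite at that time, in either direction. The part of airway content in the Ltf difference was not tested.

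Of 7 macrophage markers measured 4, 2 and 1 rose with 80 µg and 4, 2 and 5 with crocidolite at 1, 6 and 12 months. Cd68, a lysosomal glycoprotein of macrophages, rose by 1.26 ± 0.20, 1.00 ± 0.20 and 0.89 ± 0.20 with 80 µg. With crocidolite it rose by 1.57 ± 0.23, 1.14 ± 0.20 and 1.59 ± 0.21. Lcn2 was called in each of these comparisons. Saa3 was called in all but 80 µg at 12 months (adjusted p = 0.195) and crocidolite at 6 months (adjusted p = 0.0872). The part of macrophage content in Saa3 and Lcn2 was not tested. Of 8 markers of type 2 alveolar cells 3, 1 and 0 rose with 80 µg (2 with an unadjusted p under 0.05 at 12 months) and 3, 1 and 4 with crocidolite, by at most 0.54 (Lamp3 with crocidolite at 12 months). Of 7 fat cell markers, cells in which mouse Saa3 is also made, none rose and Cidec fell by 1.51 ± 0.42 with crocidolite at 1 month, with at most 4 of the 7 at an unadjusted p under 0.05 in a comparison. None of 6 monocyte, 4 mesothelial, 3 squamous or 4 skeletal muscle markers passed with 80 µg or crocidolite, with at most 1, 2, 3 and 4 of them at an unadjusted p under 0.05 in a comparison. Of 6 fibroblast markers 1 rose and 2 fell with crocidolite at 1 month, 1 fell at 6 months and 2 fell at 12 months.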

How the data were processed

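Whole-lung RNA was measured on Affymetrix arrays, 1 per mouse except for 1 mouse with 2. The authors deposited log2 values. The submitters' processing notes list oligo, RMA and limma, with no version or role. For the array annotation the genome build was not given in the sources used here. Of 41345 features, 23521 were paired with 1 symbol, 1814 with several and 16010 with none. Of the first, 23328 matched RefSeq records (GRCm38.p6) by Entrez number, which gave the gene coordinates, and 0 symbols changed. The feature of highest mean was kept per gene, which set 1341 aside. A linear model with a mean per group (120 residual degrees of freedom) was fitted to 22180 genes in limma 3.58.1 under R 4.3.3 with the data.table package, with Benjamini-Hochberg adjusted p-values, two-sided, called under 0.05. Intervals cover 95%. Pairs of genes were tested with 100000 permutations of mice within groups, two-sided, with numpy 2.4.6 under Python 3.11.15. Mice were numbered within groups by deposition, for naming alone, and 0 sample columns were left unused. The model was tested on simulated data.

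The 5 genes, the lists and the tests were chosen with earlier results of these data known. Named are the 5 genes, the 3 most alike genes of each (no predicted genes or olfactory receptors) and, per list, up to 3 genes past the test with the largest difference. Some list genes that fell were also named, once their values were known. Of the list genes, Saa1, C3, Serpina3m, Serpina3g, Nfkb1, Fpr1, Trf, Cfd, Ear1 and Krt5 were not analysed here. Alternatives were other scalings, filters, moderation, weights, subsets of arrays and leaving out each DM, 80 µg or crocidolite mouse in turn.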

Additional observations from a re-analysis of the deposited data

Results flagged for a closer look

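In each gene and group of 5 to 8 mice, 90 sets in all, the gap between an end mouse and its neighbour was set against the range with Dixon's criterion, which flags about 1 set in 20 by chance. It singled out 6 values, in 5 mice. Saa3 in replicate 2 of 80 µg at 6 months was at 9.50, with the next mouse at 6.54, and Orm1 in the same mouse was at 6.00, with the next at 4.65. Its Lcn2 of 10.89 was the highest of that group too. Saa3 in replicate 8 of 80 µg at 12 months was at 7.31, with the next at 5.63, and in replicate 2 of 40 µg at 12 months at 7.72, with the next at 6.01. Lcn2 in replicate 2 of crocidolite at 12 months was at 10.74, with the next at 10.30. The only low value of the 6 was Hp in replicate 7 of 40 µg at 6 months, at 10.12, with the next at 10.52.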

How the results depend on the processing

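No alternative reversed a called difference. The 22 calls against DM became 16 to 24 over alternatives and 19 to 23 when a mouse was left out. Fitted on the compared groups alone, or on arrays without the word replacement, 16 remained. A filter on genes with a mean of at least 5 drops Orm1 and kept the other 20. Of 12 such calls testable on arrays with the word, 9 remained. The direct comparison of 80 µg with crocidolite gave 1 call, 2 after quantile normalization, 0 on arrays without the word replacement, and 1 to 2 with a mouse left out. The slopes gave 6 to 9 calls over alternatives and 7 to 9 with a mouse left out, against 8, and 0 of 2 testable on arrays with the word remained. The 0 calls among DM times became 2 with array weights, 1 without 10 arrays of low correlation and 1 without mice high in squamous or muscle markers, a choice made after seeing the data, as were arrays with the word. The 6 pairs became 5 or 6, and 0 on the 33 mice with the word. The cause of these changes was not tested, beyond the smaller number of mice in subsets. Tests of change in time stayed at 0 calls. No paired analysis was possible because the replicate numbers only name mice in order of deposition. Mice given 1, 10 or 40 µg were not left out in turn.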
